A study of Mus musculus with 2 samples.

Results

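Kupffer cells are the resident macrophages of the liver sinusoid, and the cells described here are those of library 2, ordered by how much of their RNA came from Spic and Vcam1. Non-parenchymal cells were taken from the livers of 2 untreated male littermates aged 8 to 10 weeks, 1 with the genotype Spta wt/wt and 1 with Spta sph/sph, and macrophages were enriched with magnetic beads against F4/80. Single cells were tagged in droplets at the 3' end of their transcripts, with a unique molecular identifier (UMI) on each captured molecule, for a target of 10000 cells. The deposited matrix pools both libraries, and the labels tie neither to a mouse, so no genotype is attached to a library and no value below compares genotypes.

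Of the 9726 barcodes of library 2, 2424 (24.9%) met the selection, and the whole series holds 18633 barcodes. A cell needed at least 200 genes, at least 3000 UMIs and at most 20% mitochondrial UMIs. The Kupffer genes Clec4f, Cd5l and C1qa had to make up at least 1% of its UMIs, and 6 endothelial genes less than 0.05%. At most 1 UMI of the erythroid genes Klf1, Car1 and Hemgn was allowed. The depth filter left 5674 barcodes, the mitochondrial filter 4105, the Kupffer filter 2552 and the endothelial filter 2463. Cells were then ordered by their summed share of Spic and Vcam1 UMIs and split into 3 groups of 808, called low, middle and high cells. The members were thus selected on the measured UMIs of these genes, and Spic and Vcam1 were left out of everything that was compared between high and low cells. The comparison has no replicate: all cells came from 1 library, cells are not replicates, and intervals below cover counting error only.

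Spic encodes Spi-C, an Ets-family transcription factor close to PU.1. It is known for the red pulp macrophages of the spleen, which take up old red cells and recycle their iron, and heme is known to release its transcription from repression by BACH1. Vcam1 encodes an adhesion receptor that binds integrin alpha-4 beta-1 on blood and erythroid cells, and it is a surface marker of red pulp macrophages and of the central macrophages of erythroblastic islands. In the liver, Kupffer cells share the work of clearing damaged red cells and of returning their iron to the blood through ferroportin.

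Spic lies on chr10:88674772-88685015 and Vcam1 on chr3:116109949-116129688 (GRCm38, GENCODE). The Ets factors PU.1 and Spi-C recognise a DNA element called the PU box, with the core GAGGAA. Promoters from RefSeq (GRCm38.p6), each running from 250 bases before to 50 bases after a start site, were read for that core on both strands. On the other strand it reads TTCCTC, and both are printed in capitals. The set below shows a ranking gene, 2 genes from the high end of the comparison and 1 from the low end. The Spic window (chr10:88682974-88683273, minus strand) holds no such core. That of Cd63 (chr10:128909095-128909394, plus strand) holds 2, which begin 244 and 59 bases before the start site. The window of Hpgds (chr6:65144681-65144980, minus strand) holds 1, beginning 49 bases before the start site, and that of Fabp7 (chr10:57784673-57784972, plus strand) holds 1, beginning 42 bases after it. Each is written 5′ to 3′ on the gene's strand.
Spic: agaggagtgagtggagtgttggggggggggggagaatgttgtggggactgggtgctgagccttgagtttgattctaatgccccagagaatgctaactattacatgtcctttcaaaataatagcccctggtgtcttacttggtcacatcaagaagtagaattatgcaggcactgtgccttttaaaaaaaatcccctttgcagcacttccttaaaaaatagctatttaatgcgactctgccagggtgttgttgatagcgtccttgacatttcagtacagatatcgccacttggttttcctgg
Cd63: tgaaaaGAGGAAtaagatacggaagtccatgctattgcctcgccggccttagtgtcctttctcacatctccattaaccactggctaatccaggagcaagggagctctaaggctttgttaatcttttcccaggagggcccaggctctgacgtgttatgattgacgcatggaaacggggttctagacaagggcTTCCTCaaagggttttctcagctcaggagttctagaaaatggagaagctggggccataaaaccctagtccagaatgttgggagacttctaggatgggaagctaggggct
Hpgds: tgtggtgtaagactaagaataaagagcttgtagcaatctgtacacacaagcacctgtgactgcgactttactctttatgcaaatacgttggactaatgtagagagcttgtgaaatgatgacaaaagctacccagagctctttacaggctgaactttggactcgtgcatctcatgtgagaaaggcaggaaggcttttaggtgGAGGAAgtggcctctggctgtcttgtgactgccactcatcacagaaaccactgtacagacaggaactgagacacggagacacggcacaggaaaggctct
Fabp7: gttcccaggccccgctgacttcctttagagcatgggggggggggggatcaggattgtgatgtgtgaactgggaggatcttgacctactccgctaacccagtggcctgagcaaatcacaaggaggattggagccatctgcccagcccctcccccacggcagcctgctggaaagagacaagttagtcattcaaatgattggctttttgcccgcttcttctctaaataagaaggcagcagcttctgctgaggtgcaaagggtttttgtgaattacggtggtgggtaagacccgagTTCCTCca

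The core was present in 28.3% of all 32851 promoters of that length. Of the 15 genes with the highest ratios described below, 13 matched the table, and 8 of their 22 promoters (36.4%) held it. Those 8 promoters belong to Asb2, Cd63, Cd82, Hpgds, Rab3il1, Rasgrp1 and Slc37a2. Overlapping windows of Rab3il1 hold the same core, which was thus counted more than once. Among the 15 genes with the lowest ratios, 11 matched, and 1 of 14 promoters (7.14%) held it. A core of the antioxidant response element (TGACNNNGC, both strands) was found in 12.4% of all promoters, in 1 of 22 (4.55%, Cd82) and in 1 of 14 (7.14%, Cdkn1a). The NF-kB motif (both strands) was found in 8.46% of all promoters, in 3 of 22 (13.6%) and in 2 of 14 (14.3%). An E box (CACGTG, the same on both strands) was found in 7.15%, 4 of 22 (18.2%) and 0 of 14. These are matches of letters in a window and describe no binding.

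The selected cells had more RNA of Kupffer markers that the selection had not used than library 2 barcodes with T or natural killer cell markers. Those barcodes were picked with few Kupffer UMIs, which favours such a difference, so it is no independent check. Barcodes of monocytes or other macrophages were not compared. At 3000 UMIs a cell, Marco was detected in 99.9% of them, Vsig4 in 97.1%, Adgre1, which encodes F4/80, in 87.4%, Folr2 in 56.4% and Timd4 in 49.3%. Without thinning these shares were 100%, 99.1%, 97.9%, 85.4% and 80.7% at a median of 9082 UMIs. In 56 barcodes with T or natural killer cell markers (median 3048 UMIs) they were 100%, 69.6%, 28.6%, 12.5% and 14.3%, so the share for Marco did not exceed this background. By level, Marco was at 13078 CPM in the selected cells and 1087 CPM in those barcodes, Adgre1 at 860 and 38.7 CPM, and Timd4 at 249 and 20.4 CPM. Cells held between 3002 and 35197 UMIs, with a median of 9082. Depth was alike in low, middle and high cells, with medians of 8922, 9785 and 8538.5 UMIs per cell. After every cell was thinned to 3000 UMIs, the median number of genes was 1357.5, 1356 and 1367.5. The median mitochondrial share was 11.3%, 11.5% and 12.4%. Of the 2424 cells, 478 (19.7%) had a barcode sequence found in library 1 too, and these were 20.4% of low, 25% of middle and 13.7% of high cells. No such sequence was selected in both libraries.

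The ranking formed 1 continuous distribution with no gap between low and high cells. The median share of Spic and Vcam1 was 0.228% of a cell's UMIs, the highest 0.954%, and 5 cells had neither gene. The low cells ended at 0.1799% and the next cell stood at 0.1802%. The last of the middle cells stood at 0.27816% and the first of the high cells at 0.27819%. The 2 cuts were therefore only 1.54-fold apart, and the 3 groups are stretches of a range, not cell types.

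**Figure D1:**
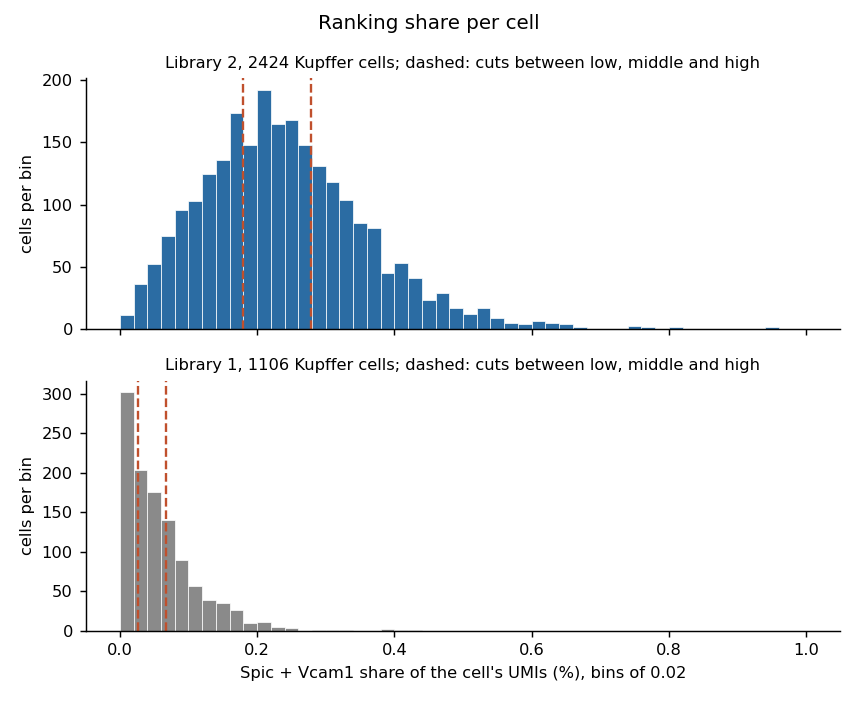
Number of cells (vertical axis) by the share of Spic plus Vcam1 in their UMIs (horizontal axis, percent, bins of 0.02) for the selected Kupffer cells of library 2 (upper panel, 2424 cells) and library 1 (lower panel, 1106 cells). Dashed lines mark the cuts between low, middle and high cells. Library 2 has a single hump with a median of 0.228%, and library 1 piles up near 0 with a median of 0.0454%.

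The order was set mostly by Vcam1, which gave 85.5% of the ranking UMIs, against 14.5% for Spic. Vcam1 was at 977 CPM in low, 1944 in middle and 3235 in high cells, where CPM is the gene's UMIs per 1000000 UMIs of the group, these 2 genes left out of the total. Its median count per cell was 8, 18.5 and 27 UMIs. Spic was at 228, 350 and 458 CPM. Since both genes chose the groups, these steps describe the ranking and are no result. At equal depth a Spic UMI was present in 48.8% of low, 63.4% of middle and 72.5% of high cells, and a Vcam1 UMI in 92.0%, 99.9% and 100% of them. The low cells were thus low in both genes and not without them.

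Free RNA in the droplets also puts UMIs into cells that do not make a gene. Barcodes of library 2 with T or natural killer cell markers and few Kupffer UMIs (56 barcodes, median 3048 UMIs) had 22.4 CPM of Spic and 189 CPM of Vcam1. Erythroid barcodes (521, median 11155 UMIs) had 23.6 and 114 CPM, with a Spic UMI in 25.1% and a Vcam1 UMI in 67.9% of them. B cell barcodes (100, median 4083.5 UMIs) had 46.7 and 198 CPM, and endothelial barcodes (127, median 4543 UMIs) 58.4 and 320 CPM. Over all selected Kupffer cells (median 9082 UMIs) Spic stood at 342 CPM, with a UMI in 87.5% of cells, and Vcam1 at 2020 CPM, with a UMI in 99.5%. The low cells, at 228 and 977 CPM, were above all 4 sets of other barcodes for either gene. How much of the RNA in these sets was free and how much was made by their own cells was not tested.

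The UMI counts of Spic and Vcam1 followed each other only weakly from cell to cell. Over 2424 cells thinned to equal depth, Pearson's r of their UMIs was 0.11 and Spearman's rank correlation 0.11, values that share 1 library, in which the median cell had 3 Spic UMIs before thinning. When cells were ordered by Spic alone, Vcam1 (independent of that order) was at 1774 CPM in low, 2050 in middle and 2238 in high cells. Vcam1 was therefore higher in cells with more Spic UMIs. How far the few Spic UMIs per cell lower these correlations and this step was not tested.

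Between high and low cells most genes differed little. Of 2909 genes that reached 50 CPM and 30 UMIs in low or high cells, 18 (0.619%) were at least 1.5-fold higher in high cells and 13 (0.447%) at least 1.5-fold lower. The median log2 ratio was 0.04, and the span from the 10th to the 90th percentile ran from -0.16 to 0.25. At 1.25-fold, 156 genes (5.36%) were higher and 72 (2.48%) lower. Counts of list members below are to be read beside these shares over all genes. The Kupffer markers Clec4f (2820 against 2720 CPM), Cd5l (8457 against 8826) and C1qa (4500 against 4533) differed by at most 0.06 on the log2 scale, but these 3 had also served in the selection and support nothing here. Timd4, a phosphatidylserine receptor of long-lived resident macrophages that the selection had not used, was at 244 against 247 CPM.

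The gene with the highest ratio was Fabp5, a fatty acid-binding protein. It was at 76.4 CPM in low, 106 in middle and 150 in high cells, a log2 ratio of 0.97 (interval 0.83 to 1.11), and at equal depth it was found in 16.7% of low and 25.7% of high cells. Its log2 ratio was 0.26 with Kupffer genes at 2% of UMIs or more, which left 119 cells at each end, and 0.55 with cells thinned to 3000 UMIs and ranked again. Kitl, the ligand of the receptor KIT and a survival factor of early erythroid and mast cells, followed at 50.2, 68.0 and 88.6 CPM, a log2 ratio of 0.82. Cd63, a tetraspanin of late endosomes and lysosomes, was at 72.7, 97.4 and 126 CPM (0.79, interval 0.64 to 0.94). A second tetraspanin, Cd82, was at 58.5, 77.0 and 93.9 CPM (0.68). For each of these 4 genes the middle cells lay between the other groups.

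The other higher genes had varied roles. Kcnj10, an inward-rectifying potassium channel, was at 106, 140 and 172 CPM (log2 ratio 0.70), and Slc37a2, a sugar-phosphate exchanger of macrophages, at 32.8, 42.3 and 55.7 CPM (0.76). Hpgds, the hematopoietic prostaglandin D synthase, was at 94.6, 125 and 147 CPM (0.63, interval 0.50 to 0.77). These genes were low to moderate in level, and the cell richest in any 1 of the 15 highest held between 0.300% (Arhgap19) and 1.33% (Fabp5) of that gene's UMIs, with a median of 0.452%. Arhgap19, a GTPase-activating protein, was at 94.5, 124 and 158 CPM (0.74), and Asb2, a substrate adaptor of a ubiquitin ligase, at 71.1, 92.7 and 117 CPM (0.72). Ethe1, a mitochondrial sulfur dioxygenase, had 48.1, 60.0 and 78.1 CPM (0.70). Lap3, a leucine aminopeptidase, had 79.0, 102 and 125 CPM (0.67). Cd200r1, an inhibitory receptor of myeloid cells, was at 38.9, 49.6 and 59.7 CPM (0.62, interval 0.40 to 0.83). The metallopeptidase Amz1, the Ras exchange factor Rasgrp1 and the Rab exchange factor Rab3il1 had log2 ratios of 0.71, 0.67 and 0.63. Past 1.5-fold but beyond these 15 were Egr1 (0.61), Tmem65 (0.60) and the glutamine synthetase Glul (0.60), the last at 695 CPM in high and 460 in low cells.

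**Figure D2:**
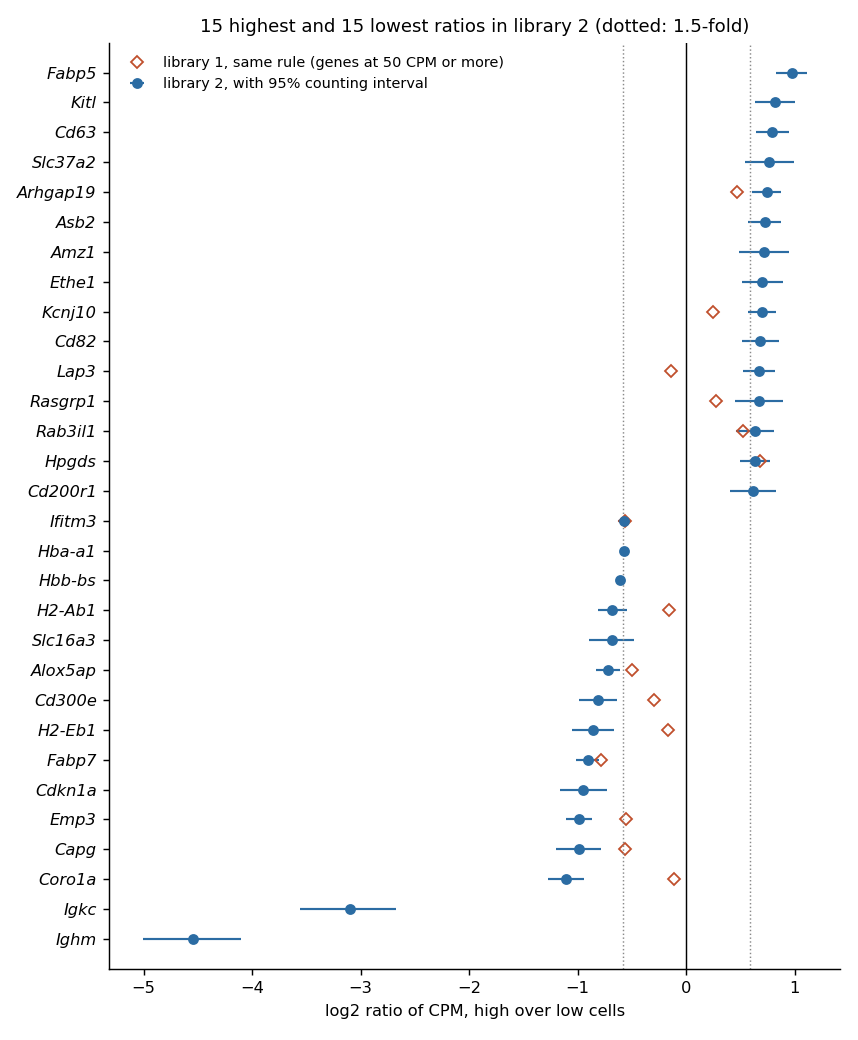
Log2 ratio of CPM, high over low cells (horizontal axis), for the 15 genes with the highest and the 15 with the lowest ratios in library 2 (vertical axis). Filled points with bars are library 2 with 95% counting intervals, open diamonds are library 1 under the same selection for genes at 50 CPM or more there, and dotted lines mark 1.5-fold. Ratios run from 0.97 for Fabp5 to -4.54 for Ighm, and of the 15 diamonds only that of Lap3 lies on the other side of 0 from its point.

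At the low end, Coro1a, an actin-binding coronin, was at 119 CPM in low, 82.8 in middle and 55.2 in high cells, a log2 ratio of -1.11 (interval -1.28 to -0.94). Capg, which caps actin filaments, was at 76.7, 58.6 and 38.6 CPM (-0.99), and Emp3, a small membrane protein, at 223, 158 and 113 CPM (-0.99, interval -1.11 to -0.87). At equal depth Coro1a was found in 27.5% of low and 13.9% of high cells, and Emp3 in 43.3% and 26.9%. The cell cycle inhibitor Cdkn1a was at 68.0, 48.1 and 35.3 CPM (-0.95).

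Fabp7, a fatty acid-binding protein like Fabp5, went the other way from it, at 267 CPM in low, 188 in middle and 142 in high cells (log2 ratio -0.91, interval -1.02 to -0.80). Alox5ap, which presents arachidonic acid for leukotriene synthesis, was at 224, 174 and 136 CPM (-0.72), and Cd300e, an activating myeloid receptor, at 98.8, 73.6 and 56.2 CPM (-0.81). The lactate exporter Slc16a3 was at 63.7, 50.05 and 39.5 CPM (-0.69). Ifitm3, an interferon-inducible membrane protein, was at 759, 665 and 511 CPM (-0.57). In all 15 lowest genes, as in all 15 highest, the middle cells lay between the low and the high ones.

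The lowest ratios of all, Ighm (-4.54) and Igkc (-3.10), which encode immunoglobulin chains, rested mostly on 1 barcode. That barcode, among the low cells and with 16742 UMIs, held 1027 of the 1209 Ighm UMIs of all selected cells (84.9%) and 375 of the 561 Igkc UMIs (66.8%). The other low cells had 66 Ighm UMIs against 44 in the high cells, and 74 Igkc UMIs against 49. Without that barcode neither gene met the minimum, 11 genes in place of 13 were at least 1.5-fold lower, and all 18 higher genes stayed past 1.5-fold.

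Most measured MHC class II genes, whose products display peptides to helper T cells, were lower in high cells. Of 10 listed genes 6 were measured, with a median log2 ratio of -0.48 against 0.04 over all genes. Of these 6, 2 were lower by 1.5-fold (0.447% of all measured genes were) and 4 by 1.25-fold (2.48%). None was higher by either. H2-Eb1 was at 85.0, 67.1 and 46.9 CPM in low, middle and high cells (-0.86, interval -1.05 to -0.67), H2-Ab1 at 159, 125 and 99.5 CPM (-0.68) and H2-Aa at 138, 109 and 97.9 CPM (-0.50). The invariant chain Cd74 was at 568, 466 and 414 CPM (-0.46), while the peptide-exchange genes H2-DMa (-0.03) and H2-DMb1 (0.04) hardly differed. At equal depth the share of cells with an H2-Eb1 UMI was 14.2% in low and 11.6% in high cells, and a single cell held 3.36% of all its UMIs. Markers of B and plasma cells summed to 0.0254% of UMIs in low cells and 0.00618% in high cells (2025 and 463 UMIs). Of those 2025 UMIs, 1027 of Ighm and 375 of Igkc lay in the 1 Ighm-rich barcode, so most of that difference was not general to the low cells. Markers of dendritic cells summed to 0.0464% and 0.0534%. None of the listed B or dendritic markers was at 0. Their part in the class II values was not tested. Without the Ighm-rich barcode H2-Eb1 was at -0.86. MHC class I genes did not follow: 9 of 12 were measured, none was past 1.25-fold and their median was -0.01.

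**Figure D3:**
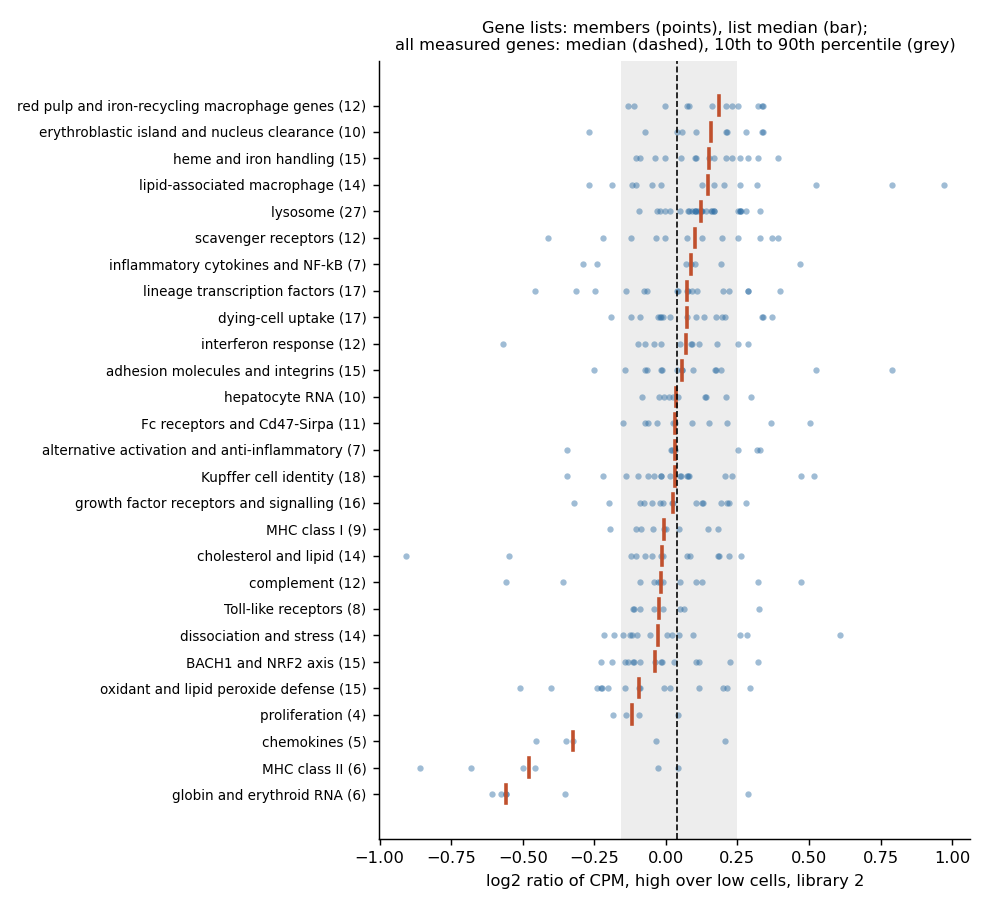
Log2 ratio of CPM, high over low cells of library 2 (horizontal axis), for the measured members of gene lists (points, with their number in parentheses) and the list medians (bars). The dashed line is the median of all 2909 genes (0.04) and the grey band their 10th to 90th percentile. Lists with at least 4 measured members are drawn. The bars of globin RNA (-0.56), class II (-0.48) and chemokines (-0.32) stand left of the band, and the other bars drawn lie within it.

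Heme and iron genes, which Kupffer cells use to take apart hemoglobin, had a median log2 ratio of 0.15, against 0.04 over all genes. Of 22 listed genes 15 were measured and 11 had positive ratios, where 60.0% of all measured genes did. None was past 1.5-fold. By 1.25-fold 2 were higher, where 5.36% of all measured genes were, and none lower. Hmox1, the enzyme that opens the heme ring, was at 7213, 8169 and 9017 CPM in low, middle and high cells (0.32, interval 0.31 to 0.34), which is just past 1.25-fold. Slc40a1, the iron exporter ferroportin, was at 2852, 3073 and 3349 CPM (0.23), and Ncoa4, which delivers ferritin for breakdown, at 308, 357 and 404 CPM (0.39). The ferritin chains went with neither end, since Fth1 was at 21461, 21476 and 20157 CPM (-0.09) and Ftl1 at 12030.4, 12250 and 11719 CPM (-0.04). Blvra, which reduces the biliverdin made by Hmox1, had a log2 ratio of 0.26.

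Genes of the BACH1 and NRF2 axis, the repressor and activator of the heme and oxidant response, did not go with Hmox1 in library 2. Of 22 listed genes 15 were measured, with a median of -0.04, and Hmox1 alone was past 1.25-fold. In library 1, 11 of 15 measured had positive ratios, with a median of 0.17 against 0.02 over all genes. There 3 were higher by 1.25-fold, where 4.2% of all its measured genes were. In library 2, Bach1 was at 74.6 against 68.1 CPM in low and high cells (-0.13, interval -0.30 to 0.04), and Nfe2l2, which encodes NRF2, at 99.4 against 91.8 CPM (-0.12, interval -0.26 to 0.03). Of 15 measured genes of oxidant defense, 2 were lower by 1.25-fold in library 2, where 2.48% of all measured genes were. They were the peroxiredoxin Prdx5 (480 against 337 CPM, -0.51) and the glutathione peroxidase Gpx1 (3786 against 2866 CPM, -0.40).

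Among genes that mark red pulp and other iron-recycling macrophages, 12 of 14 were measured, with a median of 0.19. By 1.25-fold 3 were higher, where 5.36% of all measured genes were, and none was lower. Those 3 were Hmox1 and the receptors Axl and Mertk, which bind dying cells through Gas6 and protein S. Axl was at 885, 986 and 1121 CPM (0.34, interval 0.29 to 0.39) and Mertk at 429, 470 and 541 CPM (0.33, interval 0.27 to 0.40). Cd163, the receptor for hemoglobin bound to haptoglobin, was at 107, 134 and 128 CPM (0.25), with its highest value in the middle cells. Siglec1, a sialic acid-binding receptor, was at 55.5, 65.4 and 64.1 CPM (0.21), and Treml4, a receptor of splenic macrophages, had a log2 ratio of -0.11 (-0.22 to 0.00). Erythroblastic island and nucleus-clearance genes (10 of 18 in the matrix measured) had a median of 0.16, and Axl and Mertk were again the 2 past 1.25-fold. Dnase2a, which digests the DNA of expelled erythroblast nuclei, stood at 0.28.

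Other uptake receptors went in both directions. Of 12 measured scavenger receptors, 3 were higher by 1.25-fold, where 5.36% of all measured genes were. They were Colec12 (123 against 162 CPM, 0.39), Stab2 (71.0 against 91.8, 0.37) and the mannose receptor Mrc1 (661 against 831, 0.33). Msr1, which takes up modified lipoproteins, was lower at 315 against 237 CPM (-0.41). Marco, a scavenger receptor for particles and bacteria, was at 14003, 13227 and 12022 CPM (-0.22). Among Fc receptors and the Cd47-Sirpa pair, Sirpa, which reads the CD47 signal that restrains engulfment, was at 688, 798 and 976 CPM (0.50, interval 0.45 to 0.55), and the kinase Syk at 163 against 210 CPM (0.37). Cd47 itself was at 497 against 487 CPM (-0.03). Sirpa and Syk were the 2 of 11 measured genes in that list past 1.25-fold, where 5.36% of all measured genes were higher.

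Among lineage transcription factors, Klf2, a factor of quiescence and vascular flow, was lower by 1.25-fold at 383, 308 and 279 CPM (-0.46, interval -0.54 to -0.38). Spi1, which encodes PU.1, was at 357, 313 and 288 CPM (-0.31, interval -0.39 to -0.23), so this relative of Spic went the other way from the ranking. Of 18 measured Kupffer identity genes, the potassium channel Kcna2 (192 against 275 CPM, 0.52) and complement C2 (40.4 against 56.1 CPM, 0.47) were higher by 1.25-fold and the folate receptor Folr2 (353 against 278 CPM, -0.35) lower, around a median of 0.03.

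Genes of lipid-associated macrophages had a median of 0.15 over 14 measured, with Fabp5 and Cd63 past 1.5-fold and the tetraspanin Cd9 (51.2 against 73.7 CPM, 0.53) past 1.25-fold. Apoe (-0.11) and Lgals3 (-0.27) of the same list were lower. Of 27 measured lysosome genes 23 had positive ratios, where 60.0% of all measured genes did, and the median was 0.12. Only Sort1 of them was past 1.25-fold, where 5.36% of all genes were. Cathepsin D (Ctsd, 3150 against 3766 CPM, 0.26) and prosaposin (Psap, 5016 against 5995 CPM, 0.26) were examples. Among inflammatory cytokine and NF-kB genes 7 of 21 were measured, and only Il18 (164 against 228 CPM, 0.47) was past 1.25-fold, while Il1b was at -0.29. Of 5 measured chemokines, Ccl6 (1467 against 1172 CPM, -0.32), Ccl4 (-0.35) and Pf4 (-0.45) were lower by 1.25-fold, where 2.48% of all genes were. Cholesterol and lipid genes centred on -0.01 over 14, with Fabp7 past 1.5-fold and the lipid transfer protein Pltp (740 against 506 CPM, -0.55) past 1.25-fold. The complement receptor C3ar1 was lower too (137 against 92.7 CPM, -0.56).

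Globin RNA differed between the groups in a way that depended on how cells were weighed. Hbb-bs summed to 22899 CPM in low, 21280.1 in middle and 15025 in high cells (-0.61) and Hba-a1 to 18334, 17288 and 12300.4 CPM (-0.58). Summed globin was thus 5.07%, 4.74% and 3.37% of UMIs, while the median cell had 0.782%, 1.04% and 1.10%. The median high cell held more globin RNA than the median low cell, while more globin RNA was summed over the low cells. With Kupffer genes at 2% of UMIs or more, which left 119 cells in each of the low and high groups, the summed ratios had the opposite sign, 0.76 for Hbb-bs and 0.78 for Hba-a1. When CPM were scaled without mitochondrial and globin UMIs, all 18 higher and 12 of the 13 lower genes were again past 1.5-fold. Hbb-bs, which is among the 13, was left out there. With cells also ranked without those UMIs, 17 and 12 were again past it. Any other part of globin RNA in the values above was not tested. Among genes of other cells, hepatocyte genes summed to 0.210% in low and 0.226% in high cells, stellate and fibroblast genes to 0.0363% in either, and sinusoidal endothelial genes to 0.00586% and 0.00620%. Monocyte genes, led by Lyz2 (2348 against 1963 CPM, -0.26), summed to 0.267% and 0.223%, and neutrophil genes to 0.0102% and 0.00540%. Their part in the values above was not tested.

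Splitting the ranked cells into 10 bins of equal size showed whether these differences ran along the whole order. Axl climbed at all 9 steps, from 861 to 1173 CPM, as did Hpgds, from 66.6 to 161 CPM, and Kcnj10, from 91.8 to 196 CPM. Hmox1 was at 6495 CPM in the lowest and 9531 in the highest bin and was higher at 7 of 9 steps. Emp3 was lower at every step, from 292 to 86.2 CPM, and Marco went from 14527 to 11293 CPM. Clec4f stayed between 2650 and 2877 CPM in all 10 bins. Other differences did not run along the whole order. H2-Eb1 was at 85.5 CPM in bin 1, 107 in bin 2 and 47.6 in bin 10, and H2-Ab1 at 170, 202 and 99.4 CPM. Hbb-bs was at 17296, 27955 and 11885 CPM in the same bins. Asb2 went from 130 CPM in bin 9 to 97.1 in bin 10. Vcam1 itself ran from 510 to 4219 CPM and Spic from 136 to 515 CPM. The bins were cut on these 2 genes, so their ranges were set by the ranking and are no measure for the genes above.

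**Figure D4:**
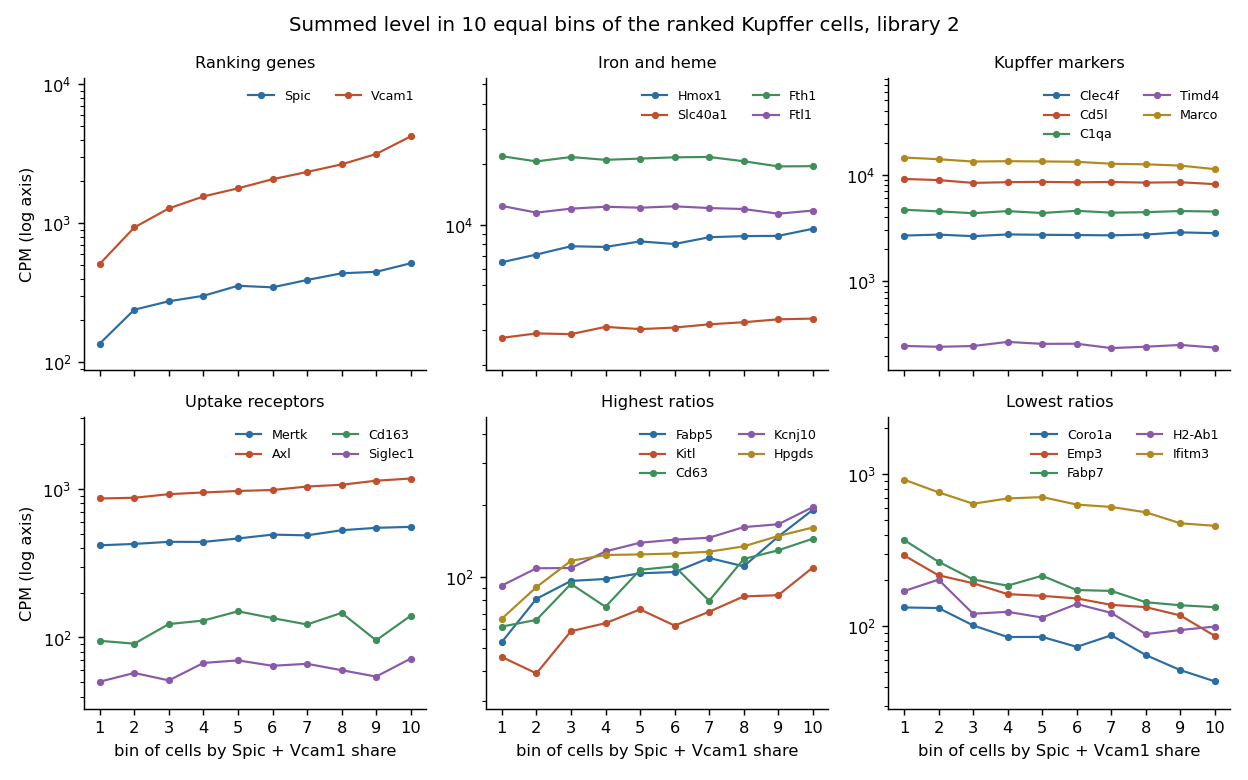
Summed level in CPM (vertical axis, logarithmic) in each of 10 equal bins of the ranked Kupffer cells of library 2, from the lowest (1) to the highest (10) share of Spic plus Vcam1 (horizontal axis), for genes grouped in 6 panels. Lines join the values of 1 gene. Clec4f, Cd5l, C1qa and Timd4 run flat, Axl, Hpgds and Kcnj10 climb at every step, and Emp3 goes down at every step.

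Since Vcam1 dominated the order, the cells were also ranked by each gene alone. With Vcam1 alone, all 15 highest genes were above 0 with a median log2 ratio of 0.69. All 15 lowest were below 0 with a median of -0.78. This was largely fixed in advance, since Vcam1 gave 85.5% of the ranking UMIs and the genes were chosen in the same cells. With Spic alone, again 15 of 15 were above and 15 of 15 below 0, with smaller medians of 0.28 and -0.44. Of their intervals, 13 and 12 excluded 0. The genes were chosen in these cells with Spic in the ranking, so this is no independent check either. In library 1, ranked by Spic alone, 10 of these 15 highest genes were above 0 with a median of 0.05 and no interval above 0, and 10 of the 15 lowest were below 0 with a median of -0.12. Ranked by Vcam1 alone there, 12 of 15 were above and 12 of 15 below 0, with medians of 0.40 and -0.49. These library 1 counts take in all 15 genes of each end, though only 6 and 9 met the minimum there. For the ranking by Spic, the low group of library 1 was the 595 cells without a Spic UMI, against 369 high cells. Cd63 was at 0.84 by Vcam1 and 0.21 by Spic, and Coro1a at -1.12 and -0.32. Fabp5 (0.93 and 0.64), Kitl (0.75 and 0.56) and Fabp7 (-0.84 and -0.74) were closer.

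Hmox1 and Cd163 had higher ratios in library 2 when cells were ranked by Spic than when they were ranked by Vcam1. Hmox1 was at 0.45 (interval 0.44 to 0.47) when cells were ranked by Spic and 0.24 (0.23 to 0.26) when ranked by Vcam1, and Cd163 at 0.44 (0.31 to 0.57) and 0.20 (0.07 to 0.34). Slc40a1 had the opposite order, 0.13 by Spic and 0.22 by Vcam1. In library 1 Hmox1 was at 0.67 by Spic and 0.24 by Vcam1, but Cd163 at 0.07 and 0.35. In library 2 the uptake receptors Axl (0.06 by Spic, 0.33 by Vcam1) and Mertk (0.14 and 0.29) had higher ratios when ranked by Vcam1. The median cell there held 3 Spic UMIs against 17 of Vcam1, so ranks by Spic carry more counting error. How far that lowers the ratios by Spic was not tested. Fth1 was at 0.08 by Spic and -0.08 by Vcam1 in library 2. Both rankings used the same cells, so these pairs of values are not independent, and the difference between the rankings was not tested.

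Library 1 gives the same contrast in cells that the ranking of library 2 did not use. Under the same selection 1106 of its 8907 barcodes (12.4%) qualified, with Spic at 106 and Vcam1 at 467 CPM, against 342 and 2020 CPM in library 2, and 151 cells had neither. Its cuts stood at 0.0267% and 0.0668%, so its upper cut lay below the lower cut of library 2. Of 3496 measured genes, 9 (0.257%) were at least 1.5-fold higher in its high cells and 11 (0.315%) lower. At 1.25-fold these were 147 (4.2%) and 119 (3.4%).

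Of the 15 highest genes of library 2, only 6 met the minimum in library 1, and 5 had the same sign, where 54.4% of all its genes were positive. Hpgds was past 1.5-fold in both libraries, at 46.5 against 74.7 CPM in library 1 (0.68, interval 0.35 to 1.02). Rab3il1 was at 0.52, Arhgap19 at 0.46, Rasgrp1 at 0.27 and Kcnj10 at 0.24 there, and Lap3 at -0.14. Fabp5, with 3.30 against 3.85 CPM in high and low cells, was close to undetected. Of the 15 lowest genes, 9 met the minimum and all 9 had the same sign, where 45.6% of all its genes were negative. Fabp7 was past 1.5-fold in both, at 734 against 425 CPM (-0.79, interval -0.89 to -0.68). Ifitm3 (-0.57), Capg (-0.57), Emp3 (-0.56) and Alox5ap (-0.50) were lower by 1.25-fold, and Coro1a was at -0.11.

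Among list members, Hmox1 was also higher in the high cells of library 1, at 799 against 1169.7 CPM (0.55, interval 0.47 to 0.63), as were Cd163 (0.40), Sirpa (0.38), Kcna2 (0.41) and Stab2 (0.35). Axl (0.12) and Slc40a1 (0.09) differed less there. Class II genes were far higher in library 1 as a whole and differed little between its low and high cells: H2-Ab1 was at 2459.6 against 2201 CPM in low and high cells (-0.16) and H2-Eb1 at 1650.3 against 1471 CPM (-0.17). Marco went the other way from library 2, at 270.4 against 647 CPM (1.26). Ccr2, the chemokine receptor of monocytes, named here after its value was seen, was the lowest gene of library 1, at 56.9 against 23.1 CPM (-1.30). How far these contrasts differ between the libraries was not tested, because each library is 1 sample.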

How the data were processed

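The authors deposited whole-number UMI counts per gene and barcode for both libraries in 1 matrix, made with Cell Ranger 3.0.1 against GRCm38.p5, and R 3.6.1, as the submitters' processing notes list them. The annotation release is not given in the sources used here. Barcode suffixes separated library 1 (8907 barcodes, 33099802 UMIs) from library 2 (9726 barcodes, 56947765 UMIs).

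From these counts, UMIs were summed over the low, middle or high cells and scaled as CPM to a total without Spic and Vcam1. CPM carry exact Poisson, ratios conditional exact and shares Clopper-Pearson 95% intervals. No test was run, since each library is 1 sample. No doublet caller was run, so droplets with several cells may remain. Thinning drew 3000 UMIs per cell without replacement (seed 1). Genes were named by a rule: the 15 highest and 15 lowest ratios among genes with at least 50 CPM and 30 UMIs in low or high cells whose interval excludes 1, without numbered predicted genes, and members of 35 gene lists that met the same minimum, with 17 further genes always given. The cells, the lists and the 1.5-fold limit were chosen with earlier results of these data known, and the 1.25-fold limit, midway between no difference and 1.5-fold, after these data had been seen. Gene positions are those of GENCODE, and promoters those of RefSeq. The ratios, intervals and calls were tested on simulated data, drawn as 1 Poisson count per gene and group. That simulation had no spread between cells and no ranking step, so it cannot check how either affects the intervals. Figures were drawn with matplotlib 3.10.9, tables handled with pandas 2.3.3 and numpy 2.4.6, and intervals taken from scipy 1.17.1 under python 3.11.15. Alternatives covered ranking, cuts, depth, filters, scaling, shared barcodes and weights.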

Additional observations from a re-analysis of the deposited data

Results flagged for a closer look

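Marco, a scavenger receptor of Kupffer cells, went in opposite directions in the 2 libraries. Its log2 ratio of high over low cells was -0.22 in library 2 (14003 against 12022 CPM in low and high cells) and 1.26 in library 1 (270.4 against 647 CPM). The difference between the libraries was not tested, because each is 1 sample. Its level also differed between them, and in library 2 it was found in 100% of the selected cells.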

How the results depend on the processing

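In library 2, 26 of the 30 highest and lowest genes kept their direction under all alternatives that gave a value. Ighm and Igkc turned to 1.22 each with at most 10% mitochondrial UMIs, Igkc to 0.90 without barcodes shared between libraries, and Hbb-bs to 0.76 with Kupffer genes at 2% of UMIs or more, where Hba-a1 was 0.78 and Cd163 -0.03. The counts past 1.5-fold, 18 higher and 13 lower in library 2 and 9 and 11 in library 1, moved further than 1.5 times under the following settings, in that order: Spic alone 7 and 6, and 1 and 2; the outer 25% of cells at each end 32 and 29, and 32 and 18; at most 10% mitochondrial UMIs 35 and 21, and 221 and 131; Kupffer genes at 2% or more 110 and 98, and 104 and 73; at least 20 CPM 47 and 34, and 72 and 58; no minimum CPM 283 and 189, and 188 and 169. The 2 strict cell filters left 254 and 119 low cells in library 2 and 79 and 42 in library 1, so counting error is larger there. Thinned cells gave 8 lower genes in library 2 and 18 higher in library 1. In library 1, ranks within depth bins gave 21 lower genes, equal weights 17 higher, and ranking and scaling without mitochondrial and globin UMIs 17 higher. The 1.25-fold limit gave 156 and 72 in library 2. With ranks within depth bins, library 2 had 13 higher and 15 lower genes, of which 13 and 12 were the same genes. Of the 18 and 13, fewer were again past the limit with thinned cells (8 and 6), Spic alone (2 and 4) or Kupffer genes at 2% or more (11 and 7). The cause of the other shifts was not tested. No paired analysis was possible because the labels carry no replicate numbers and each library is 1 sample. Genes under 50 CPM are limited by depth, with 2599603 UMIs in the low cells of library 1 against 7988036 in library 2.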
